A study of Mus musculus with 60 samples.

Results

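Gene expression was compared between 3 testes arrays labelled double knockout (DKO) and 3 testes arrays labelled wild type (WT), 6 of the 60 arrays of the series. The DKO arrays came from male mice N5895, N5894 and N5893, labelled B4galnt1 -/- and B4galnt2 -/-, and the WT arrays from male mice N9700, N3740 and N3738, labelled +/+ for both genes. The members were chosen by these genotype and tissue labels, with the animal as the replicate, and no treatment is labelled. Total RNA was hybridised to an Affymetrix array of glycan-related genes, on which 963 probe sets could be given a gene symbol (909 genes). Strain, age and the targeted exons are not given in the labels used here. Kidney and thymus of the same 6 animals were also on arrays. Expression served the study in picking tissues whose glycans would be analysed next.

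B4galnt1 encodes the enzyme that adds N-acetylgalactosamine to simple gangliosides, sialic-acid-bearing glycolipids of the cell surface, and so opens the route to the complex ones. B4galnt2 encodes the enzyme that adds N-acetylgalactosamine to sialylated chains to make the Sda antigen. Mice without B4galnt1 are known for male infertility with disturbed sperm formation, and testis is also rich in seminolipid, a sulfated lipid made by a separate route. Glycolipids are taken apart in lysosomes by glycosidases that work with activator proteins, many of which reach the lysosome by mannose 6-phosphate receptors.

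Values below are log2 expression values, and a difference is the DKO mean minus the WT mean on that scale, with its standard error (SE) from limma. A probe set was called at a Benjamini-Hochberg adjusted p under 0.05 over the 963 probe sets. The array medians over all probe sets lay between 5.44 and 5.48 in DKO and between 5.48 and 5.57 in WT. The arrays differed more in their upper range. The percentile 75 was 6.83 to 6.96 in DKO and 6.89 in WT N9700, but 7.13 in both WT N3740 and WT N3738. The WT arrays did not form a single group. WT N3740 and WT N3738 differed from each other by a median of 0.116 per probe set, whereas WT N9700 differed from them by 0.234 and 0.241. WT N9700 differed from the DKO arrays of N5895, N5894 and N5893 by 0.149, 0.126 and 0.155, so it lay nearer to every DKO array than to either of the other WT arrays. For 654 of 963 probe sets (67.9%) N9700 was nearer to the DKO mean than to the mean of the other WT animals. The same share was 31.5% for N3740 and 35.8% for N3738. The DKO arrays differed from each other by 0.144 to 0.165, so N9700 lay about as near to them as they lay to each other. The called genes and the gene lists are therefore also given without N9700. That animal was singled out on these same values, and the WT arrays left, N3740 and N3738, are the closest pair of testes arrays. Differences, counts and adjusted p values without N9700 are thus shaped by that choice, as are differences against N9700 alone. None of them is separate support for any gene or list.

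**Figure D1:**
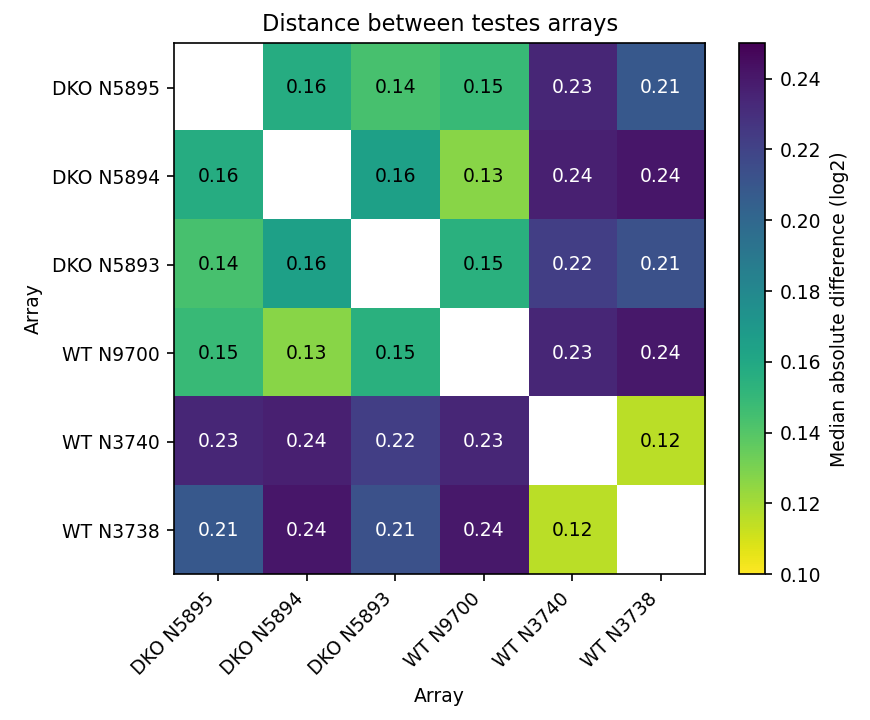
Median absolute difference (log2) over 963 probe sets between each pair of testes arrays, with DKO arrays above and left of WT arrays. WT N9700 lies 0.13 to 0.15 from the DKO arrays and 0.23 to 0.24 from the other WT arrays, which lie 0.12 apart.

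The tissue label was set against testis markers. Galntl5, a gene of late male germ cells, read 12.14, 11.76 and 11.72 in DKO testes (N5895, N5894, N5893) and 11.75, 11.45 and 11.39 in WT testes (N9700, N3740, N3738). Umod, a kidney tubule gene, read 5.09 to 5.26 in DKO testes and 5.03 to 5.34 in WT testes. In kidney of this line Galntl5 read 3.33 to 3.43 in DKO and 3.37 to 3.67 in WT. Umod read 12.09 to 12.41 in DKO kidney and 12.16 to 12.49 in WT kidney. All 6 arrays thus had the testis pattern of Galntl5 and Umod. Havcr1, the other kidney marker measured, did not separate WT testes from WT kidney. It read 4.45 to 4.51 in DKO testes and 4.54 to 4.67 in WT testes, against 4.52 to 7.87 in DKO kidney and 4.26 to 4.64 in WT kidney. Of the 28 germ cell markers listed, 3 were on the array (Galntl5, Mgat4d and Fgf22), as were 2 of 14 Sertoli cell markers and 3 of 12 Leydig cell markers. Star, Insl3 and Cyp17a1, which define Leydig cells, were not among those measured, nor was any of the 11 epididymis markers.

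Loss of the targeted transcripts could not be read from these probe sets. B4galnt1 read 6.92, 7.09 and 6.93 in DKO testes and 6.99, 7.33 and 7.57 in WT testes (animals in the order above). The groups overlapped, because WT N9700 read below DKO N5894. B4galnt1 differed by -0.32 ± 0.16 (limma adjusted p = 0.440, exact permutation p = 0.2, 2-sided, smallest possible 0.1). B4galnt2 read 4.60, 4.38 and 4.75 in DKO testes and 4.45, 4.55 and 4.28 in WT testes, little above the percentile 25 of all values (4.211). It differed by 0.15 ± 0.14 (limma adjusted p = 0.619, exact permutation p = 0.4). Without N9700, B4galnt1 was at -0.47 and was called (limma adjusted p = 0.0248), and B4galnt2 was at 0.16 (adjusted p = 0.463). The position of either probe set relative to the targeted part of its gene is not known here, so DKO and WT name the labels throughout. In thymus of the same animals B4galnt1 read 4.85, 5.23 and 5.14 in DKO N5895, N5894 and N5893, against 5.45 in WT N9700, 8.45 in WT N3740 and 8.72 in WT N3738. The thymus arrays of N3740 and N3738 stood apart in other genes too: Igf1 read 6.11 and 6.08 there, against 9.78 in N9700 and 9.45 to 9.97 in thymus of 5 DKO animals.

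Across the array 3 probe sets fell in DKO testes (0.312% of 963) and 0 rose (0.0%), and 124 had an unadjusted limma p below 0.05. The genes that fell were Ugt1a6b, Igf2r and Hpse, and in each of them all 3 DKO arrays lay below all 3 WT arrays. That held for 103 of 963 probe sets (10.7%), and a small p favours groups that do not overlap.

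Igf2r encodes the cation-independent mannose 6-phosphate receptor, which carries newly made lysosomal enzymes and also binds and clears insulin-like growth factor 2. Hpse encodes heparanase, the enzyme that cuts heparan sulfate chains. The stretch of 250 bases before the start of each gene is shown because these are the called genes with an entry in the RefSeq promoter table used (2 of 3). Each is given 5′ to 3′ on the gene's strand, the minus strand, in GRCm38.p6. Igf2r lies at chr17:12769707-12769956 and Hpse at chr5:100719717-100719966. Capitals mark CACGTG (the E-box core, which is its own reverse complement) and GGGCGG (the GC box, either strand).
Igf2r: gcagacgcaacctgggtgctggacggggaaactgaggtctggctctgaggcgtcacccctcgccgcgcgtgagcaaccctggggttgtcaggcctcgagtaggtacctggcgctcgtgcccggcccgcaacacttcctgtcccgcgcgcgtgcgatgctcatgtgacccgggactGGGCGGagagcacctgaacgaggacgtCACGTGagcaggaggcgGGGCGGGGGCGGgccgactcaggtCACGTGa
Hpse: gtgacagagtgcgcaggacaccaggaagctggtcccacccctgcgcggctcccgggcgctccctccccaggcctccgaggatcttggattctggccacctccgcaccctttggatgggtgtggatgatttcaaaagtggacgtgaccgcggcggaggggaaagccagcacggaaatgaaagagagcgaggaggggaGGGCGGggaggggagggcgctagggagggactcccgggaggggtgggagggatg
The Igf2r stretch held 2 CACGTG matches and 3 GGGCGG matches, and the Hpse stretch held 0 and 1. Among 32851 promoters of the table cut to the same 250 bases, 6.02% held CACGTG, 0.429% held it at 2 or more places, and 32.7% held GGGCGG. Among the 875 promoters of genes on the array the shares were 7.2%, 0.8% and 46.6%. These matches describe the letters only.

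Igf2r read 6.22, 6.18 and 6.10 in DKO testes (N5895, N5894, N5893), against 6.83, 7.12 and 7.03 in WT testes (N9700, N3740, N3738). The DKO arrays lay close together, and the lowest WT array was N9700. The means were 6.17 ± 0.06 in DKO and 6.99 ± 0.15 in WT (SD, n = 3 each), a difference of -0.83 ± 0.12 that leaves the DKO level 43.6% lower (limma adjusted p = 0.0264). Without N9700 the difference was -0.91, and against N9700 alone it was -0.66.

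Hpse read 5.63, 5.68 and 5.79 in DKO testes, against 6.28, 6.66 and 6.71 in WT testes. N9700 again gave the lowest WT value, still above every DKO array. The means were 5.70 ± 0.08 in DKO and 6.55 ± 0.23 in WT (SD, n = 3 each), and the difference of -0.85 ± 0.14 was a level 44.6% lower in DKO (limma adjusted p = 0.0402). Without N9700 it was -0.99. The other genes of heparan sulfate turnover outside the cell were not called. The endosulfatase genes Sulf1 and Sulf2, whose products trim sulfate from the chains, were at 0.06 ± 0.18 and -0.09 ± 0.14, and Hpse2, which encodes a heparanase relative without that activity, was at -0.04 ± 0.14.

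Ugt1a6b encodes a UDP-glucuronosyltransferase, one of the enzymes that attach glucuronic acid to small molecules for disposal. Its probe set read 8.58, 8.59 and 8.30 in DKO testes, against 9.35, 9.95 and 9.61 in WT testes. The groups were 0.755 apart at their nearest arrays (DKO N5894 and WT N9700). The means were 8.49 ± 0.17 in DKO and 9.63 ± 0.30 in WT (SD, n = 3 each), and the difference of -1.14 ± 0.17 was a level 54.7% lower in DKO (limma adjusted p = 0.0264). Without N9700 it was -1.28. The genes of the Ugt1a family share their last exons and this probe set is marked as shared with other transcripts, so the value may belong to several of them. The other 4 UDP-glucuronosyltransferase genes measured read below 4.211, and 0 of them was called.

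**Figure D2:**
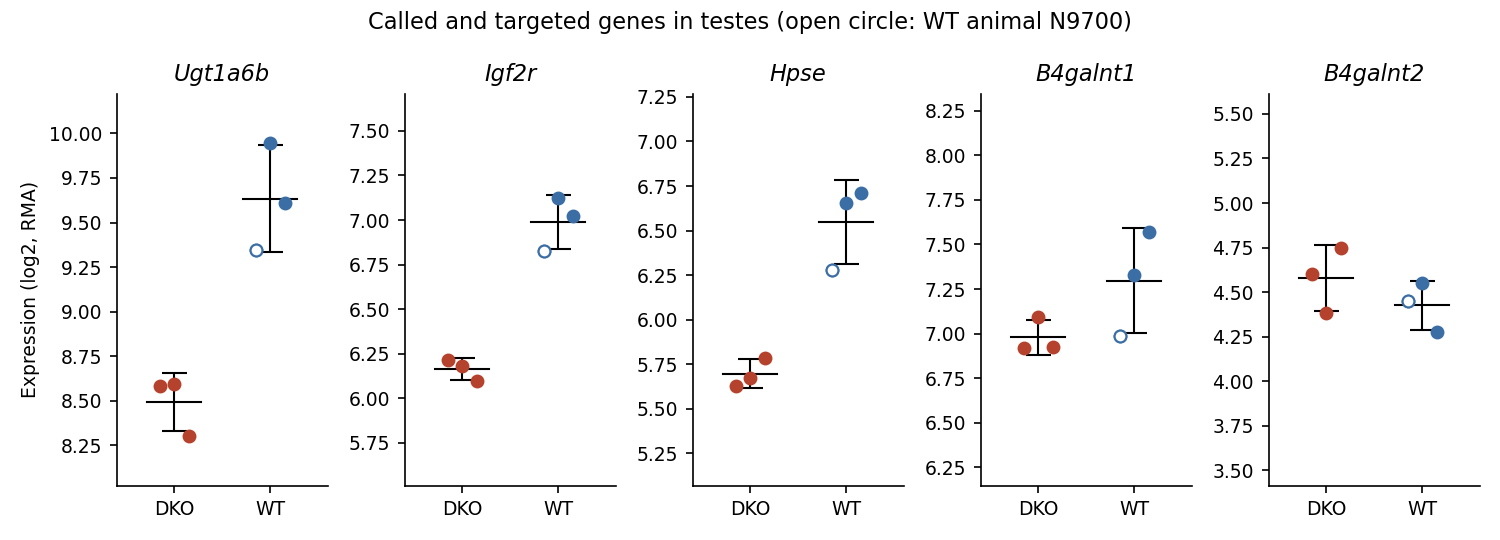
Log2 expression of the called genes Ugt1a6b, Igf2r and Hpse and of the targeted genes in DKO (left) and WT (right) testes. Points are animals, the open circle is WT N9700, and bars are mean and SD (n = 3 each); all panels span the same log2 height. The groups are separate for the called genes and overlap for B4galnt1 and B4galnt2.

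Each of the 3 calls needed every animal except N9700. Leaving out any 1 of the other animals left 0 probe sets called by limma, and 53 to 95 with an unadjusted p below 0.05. Without N9700, 193 probe sets fell (20.0% of 963) and 12 rose (1.25%), and the 3 genes above were among them. Against N9700 as the only WT animal, Igf2r, Hpse and Ugt1a6b were at -0.66, -0.58 and -0.85.

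More probe sets leaned down than up. In 103 probe sets (10.7%) all 3 DKO arrays lay below all 3 WT arrays, and in 29 (3.01%) all 3 lay above. The median difference was -0.11 over all 963, and it depended on the scaling: it was -0.003 after a second quantile normalization and -0.002 after centring on the measured housekeeping genes. With the probe sets divided by mean level into 4 bins of 240 or 241, it was -0.02, -0.07, -0.14 and -0.21 from the dimmest bin to the brightest. Set against N9700 alone, the same 4 medians were 0.02, 0.01, 0.01 and 0.04. The lean in the bright genes was thus seen against N3740 and N3738 and not against N9700. N9700 had been singled out on these same values as near the DKO arrays, and where the lean comes from was not tested. After each array was centred on its own median over all probe sets, the median difference was -0.06, Igf2r was at -0.77 and Ugt1a6b at -1.09, both still called (limma adjusted p = 0.0251 each), while Hpse was at -0.80 and was no longer called (adjusted p = 0.0538).

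Lysosomal genes gave some of the lowest medians among the lists. Of 15 measured genes of glycolipid breakdown, 0 rose, 0 fell and 15 were not called. Their median difference was -0.24, with 13 below 0, against a median of -0.11 and 643 of 909 below 0 for all genes. In 3 of the 15 the DKO arrays lay below all WT arrays, against 97 of 909 genes. Without N9700, 5 of the 15 fell, against 186 of 909 genes.

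Asah1, which encodes the acid ceramidase that splits ceramide, read 8.05, 8.05 and 8.17 in DKO testes and 8.55, 8.77 and 8.89 in WT testes. The groups did not overlap, and the difference of -0.65 ± 0.13 missed the threshold (limma adjusted p = 0.114). Psap, which encodes the precursor of the saposin activator proteins, read 10.18, 10.25 and 10.30 in DKO testes and 10.36, 10.86 and 10.85 in WT testes. Its WT N9700 value lay 0.06 above the highest DKO value, and the difference was -0.45 ± 0.15 (limma adjusted p = 0.290). Gm2a, the activator that presents ganglioside GM2 to its hydrolase, was at -0.39 ± 0.15. Smpd1, the acid sphingomyelinase gene, was at -0.41 ± 0.15. In Gm2a and Smpd1 the groups overlapped, because N9700 read as low as a DKO array. Without N9700 these 4 genes were at -0.74, -0.61, -0.54 and -0.56 and were called (limma adjusted p = 0.0032 to 0.0125).

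The members that follow lay between -0.27 and 0.01. Hexa, which encodes a subunit of the hexosaminidase that cuts GM2, read 9.29, 9.28 and 9.19 in DKO testes and 9.19, 9.29 and 9.27 in WT testes (0.01 ± 0.11). Arsa, which removes sulfate from sulfatide and seminolipid, was at -0.11 ± 0.15, the galactosidase gene Glb1 at -0.17 ± 0.17 and Galc, the galactosylceramidase gene, at -0.27 ± 0.18. The sialidase genes Neu1, Neu2 and Neu3 were at -0.25 ± 0.20, -0.23 ± 0.13 and 0.01 ± 0.12. Gla and Ctsa were at -0.20 ± 0.12 and -0.19 ± 0.15. None of these was called, with or without N9700.

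Of 13 measured genes that break down glycoproteins and glycosaminoglycans in lysosomes, 1 fell (Hpse), 0 rose and 12 were not called. The median was -0.34 with 12 of 13 below 0, against 643 of 909 genes. Without N9700 5 of the 13 fell, against 186 of 909 genes. Arsb, which removes sulfate from dermatan sulfate, read 7.004, 6.765 and 6.346 in DKO testes and 6.866, 7.493 and 7.612 in WT testes. The DKO arrays were spread, the groups overlapped through N9700, and the difference was -0.62 ± 0.22 (limma adjusted p = 0.309). Aga, which cleaves the sugar-asparagine bond, was at -0.45 ± 0.15 with groups that did not overlap, and Man2b1, the lysosomal alpha-mannosidase gene, was at 0.00 ± 0.12. Arsb and Aga were singled out after their values were seen. Of the 5 genes listed for the mannose 6-phosphate pathway, Igf2r was the only one measured. After the second quantile normalization the medians of the 2 lysosomal lists were -0.15 and -0.12, against -0.003 for all genes. With N9700 as the only WT animal the medians of the 2 lysosomal lists were -0.08 and -0.10, against 0.02 for all genes.

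**Figure D3:**
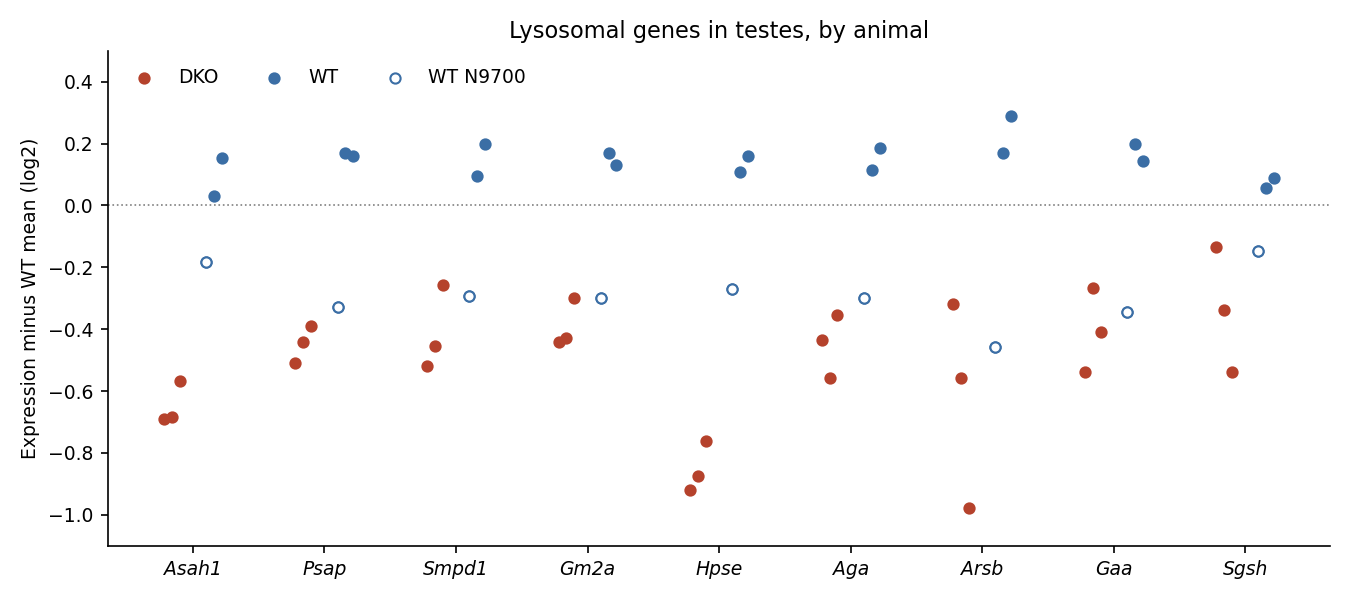
Log2 expression of 9 lysosomal genes in DKO (red) and WT (blue) testes by animal, relative to the WT mean of each gene; the genes are from the 5 smallest p of each lysosomal list, and the open circle is WT N9700. N9700 lies within or close to the DKO values for most of them and clearly above them for Asah1 and Hpse.

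Genes of ganglioside and neutral glycolipid synthesis, the route of B4galnt1 itself, had 0 members called higher, 0 lower and 22 not called. The median was -0.11 with 16 of 22 below 0, the same median as for all genes, and it was 0.03 after the second quantile normalization. At the entry, Ugcg, which makes glucosylceramide, was at -0.35 ± 0.19. The lactosylceramide synthase genes B4galt5 and B4galt6 were at -0.33 ± 0.15 and 0.33 ± 0.19. St3gal5, which makes ganglioside GM3, read 8.73, 8.84 and 9.16 in DKO testes and 8.70, 9.31 and 9.25 in WT testes (-0.18 ± 0.18). Values of the DKO arrays thus lay between N9700 and the other WT animals.

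Further along the route, St8sia1, which makes GD3, was at -0.01 ± 0.14 and B3galt4, which extends the product of B4galnt1, at -0.03 ± 0.15. St3gal2, which adds the outer sialic acid of complex gangliosides, read 5.49, 5.05 and 5.29 in DKO testes and 5.58, 5.75 and 5.79 in WT testes, with groups that did not overlap (-0.43 ± 0.14, limma adjusted p = 0.290). St3gal1, a sialyltransferase of core O-glycans, was at -0.31 ± 0.12 (adjusted p = 0.325). St8sia5, which adds further sialic acids to complex gangliosides, lay the other way, at 7.33, 7.36 and 7.24 in DKO testes and 7.10, 6.78 and 7.05 in WT testes. All 3 DKO arrays lay above all 3 WT arrays (0.33 ± 0.13, adjusted p = 0.325). In the whole list the DKO arrays lay below all WT arrays in 2 of 22 genes and above them in 1, against 97 and 25 of 909 genes. Without N9700, 2 of the 22 rose (St8sia5 and B4galt6) and 4 fell (St3gal2, B4galt5, Ugcg and B4galnt1), against 12 and 186 of 909 genes. On the globo-series side, A4galt and B3galnt1 were at -0.23 ± 0.13 and -0.02 ± 0.17.

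The other glycolipid genes of this route were near 0 or overlapped. B3gnt5, which starts the lacto-series, was at -0.16 ± 0.12, and Gbgt1, which encodes a Forssman synthase, at 0.22 ± 0.16. The fucosyltransferase genes Fut1 and Fut2 were at 0.13 ± 0.14 and -0.17 ± 0.13. St3gal3 and St8sia3 were at -0.08 ± 0.16 and -0.07 ± 0.13. The 4 St6galnac genes of the list, numbered 3 to 6, lay between -0.19 and 0.06. On the seminolipid route 2 of 11 listed genes were measured. Ugt8a, which makes galactosylceramide and its testis counterpart, read 5.84, 5.29 and 5.65 in DKO testes and 5.18, 5.89 and 5.84 in WT testes (-0.04 ± 0.21). Gal3st1, which adds the sulfate, read 6.69, 6.62 and 6.84 in DKO testes and 6.64, 6.75 and 6.71 in WT testes (0.02 ± 0.12). In both genes the groups overlapped.

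The other beta-GalNAc transferases included B4galnt4, which makes the LacdiNAc unit and is not a target of the knockout. It read 6.39, 6.35 and 6.54 in DKO testes and 6.45, 5.65 and 5.68 in WT testes. N9700 fell among the DKO arrays, the difference was 0.50 ± 0.20 (limma adjusted p = 0.325), and with N9700 as the only WT animal it was -0.02. Of the 8 beta-GalNAc transferases 0 was called. Without N9700 1 rose (B4galnt4) and 1 fell (B4galnt1), against 12 and 186 of 909 genes.

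Among heparan sulfate genes, 0 of 25 synthesis genes was called in either direction (median -0.12, 18 below 0), and without N9700 6 fell. Over all 909 genes the median was -0.11 with 643 below 0, and without N9700 186 fell and 12 rose. Hs6st1, which adds 6-O-sulfate, had the smallest p, at -0.47 ± 0.16 (limma adjusted p = 0.290). The glypicans and syndecans, cell-surface proteins that carry these chains, lay on both sides of 0 without a call (0 of 10, median -0.26). Gpc2 read 6.20, 6.33 and 6.39 in DKO testes and 5.75, 5.62 and 5.97 in WT testes. The DKO arrays were all above, by 0.53 ± 0.13 (adjusted p = 0.248). In 5 of the 10 the DKO arrays lay below all WT arrays, and in 2 (Gpc2 and Sdc3) above, against 97 and 25 of 909 genes. Without N9700, 4 of the 10 fell and 1 rose. The 5 were Gpc1, Gpc3, Gpc4, Sdc1 and Sdc2, named after their values were seen, at -0.62 to -0.21. Of 13 chondroitin and dermatan sulfate genes 0 was called (median -0.10, but 0.04 after the second quantile normalization), and without N9700 2 fell. Chsy3 was at -0.26 ± 0.12.

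The insulin-like growth factor list held 1 gene that fell, Igf2r, 0 that rose and 11 not called (median -0.26, but -0.06 after the second quantile normalization). Without N9700, 4 of the 12 fell, against 186 of 909 genes. Igf2, whose product Igf2r binds, read 7.89, 8.14 and 7.85 in DKO testes and 8.47, 8.49 and 8.41 in WT testes. The WT arrays, N9700 included, spanned 0.073 and lay above all DKO arrays (-0.50 ± 0.12, limma adjusted p = 0.248). Without N9700 it was at -0.49 and was called (adjusted p = 0.0226). Igf1r, the signalling receptor, was at -0.15 ± 0.13 and Igf1 at 0.05 ± 0.22. Of the TGF-beta and BMP list 0 of 25 was called (median -0.13), and without N9700 6 fell, again against 186 of 909 genes. Tgfbr2, a TGF-beta receptor gene, read 5.999, 5.830 and 6.228 in DKO testes and 6.643, 6.583 and 6.729 in WT testes, without overlap (-0.63 ± 0.13, adjusted p = 0.151). Its other probe set was at 0.17, so the 2 did not lie on the same side.

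**Figure D4:**
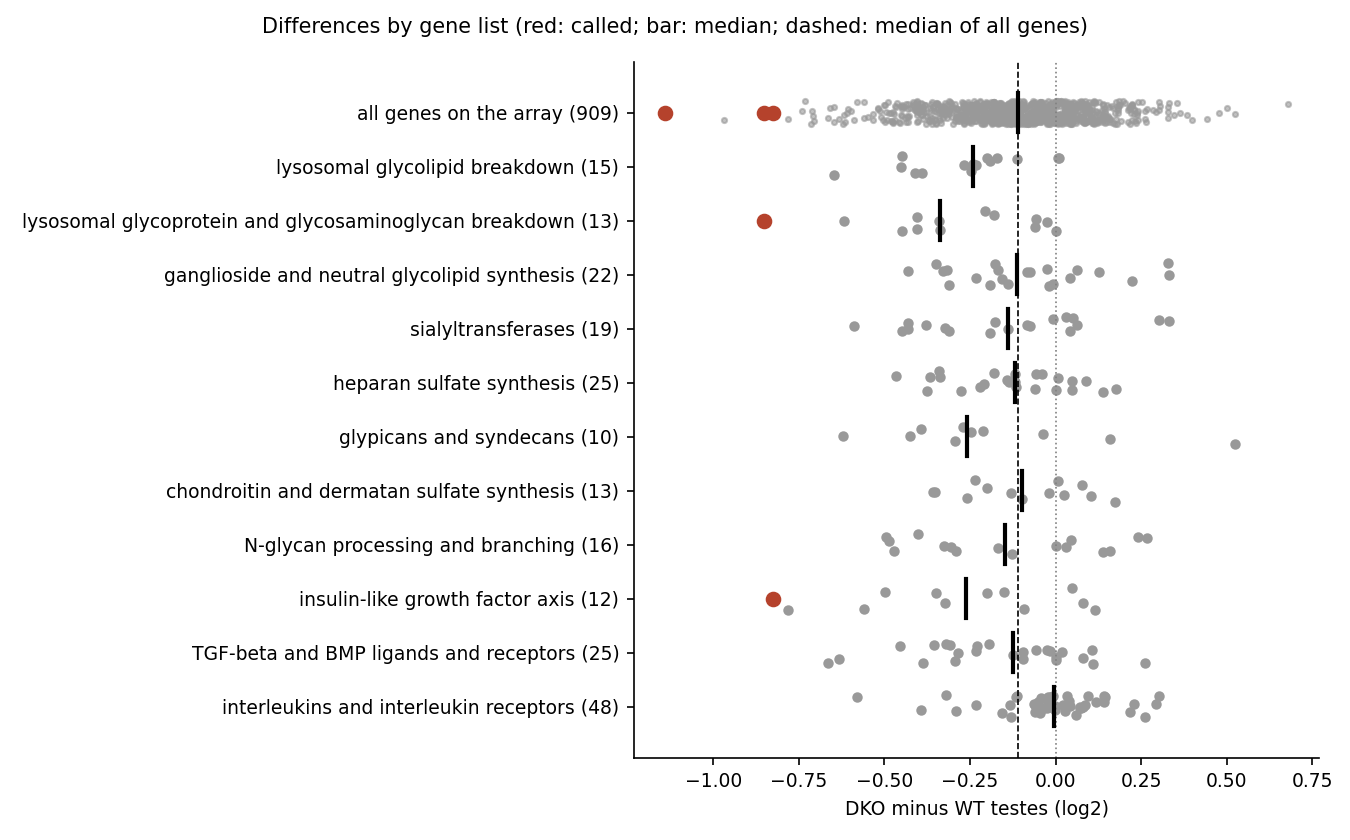
Log2 difference (DKO minus WT testes) of each gene in 11 gene lists and of all 909 genes, with the number measured in brackets; bars are medians, red points are called genes, the dashed line is the median of all genes (-0.11). The medians of the lysosomal lists (-0.24 and -0.34), the glypicans and syndecans (-0.26) and the insulin-like growth factor list (-0.26) lie below it.

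The remaining lists held no call in either direction with all 6 animals. The interleukins and their receptors had a median of -0.01 over 48 genes, with Il6st, the shared receptor chain of the interleukin-6 family, at -0.58 ± 0.16. The chemokines had a median of -0.06 over 28, with Cxcl12 at -0.47 ± 0.15. The heparin-binding growth factors and receptors had a median of -0.11 over 39. The polypeptide GalNAc transferase and O-glycan core genes (26), the N-glycan processing genes (16), the sialyltransferases (19) and the fucosyltransferases (10) had medians of -0.06, -0.15, -0.14 and -0.10. Their members with the smallest p were Galnt2 (-0.44 ± 0.14), Man2a1 (-0.47 ± 0.13), St3gal2 and Fut4 (-0.35 ± 0.13). Nucleotide sugar transporters (16), galectins (9) and Notch genes (13) had medians of -0.19, -0.12 and -0.12. Their members with the smallest p were Slc35c1 (-0.36 ± 0.14), Lgals1 (-0.43 ± 0.25) and Notch2 (-0.66 ± 0.24). The cytosolic sulfotransferases had a median of -0.02 over 6, with the estrogen sulfotransferase gene Sult1e1 at -0.71 ± 0.23. Without N9700, 6 of 16 N-glycan genes, 6 of 16 nucleotide sugar transporters, 5 of 19 sialyltransferases, 5 of 39 heparin-binding growth factor genes, 4 of 48 interleukin genes, 3 of 28 chemokines and 2 of 13 Notch genes fell, against 186 of 909 genes. In the polypeptide GalNAc transferase, fucosyltransferase, galectin and sulfotransferase lists 1 gene each fell. In the nucleotide sugar transporter, sialyltransferase, heparin-binding growth factor and polypeptide GalNAc transferase lists 1 gene each rose, against 12 of 909. After the second quantile normalization the medians of the N-glycan, sialyltransferase, fucosyltransferase and polypeptide GalNAc transferase lists were above 0, at 0.07, 0.02, 0.04 and 0.02, as were those of the interleukins (0.06) and the sulfotransferases (0.009). The chemokine and heparin-binding growth factor medians were at -0.001 and -0.04 there.

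Of the probe sets that were not called, the 12 lower ones with the smallest p were those of Asah1, Tgfbr2, Met, Ube2g1, Igf2, Hp1bp3, Dag1, Dlg1, Uap1l1, Junb, Man2a1 and Copg1. Their differences ran from -0.74 to -0.45 with limma adjusted p from 0.114 to 0.265. Met, the hepatocyte growth factor receptor gene, read 3.97, 3.89 and 4.01 in DKO testes and 4.50, 4.50 and 4.37 in WT testes. Here the 3 WT animals, N9700 included, spanned 0.14, and the groups did not overlap (-0.50 ± 0.11). All 3 DKO values lay below 4.211, the percentile 25 of all values, and the filter on low values removed this probe set. Dag1, the gene of dystroglycan, a matrix receptor that carries O-mannosyl glycans, read 8.36, 8.62 and 8.32 in DKO testes and 8.71, 9.20 and 9.33 in WT testes (-0.65 ± 0.17). Man2a1, the Golgi mannosidase gene that trims N-glycans before branching, read 8.38, 8.28 and 8.44 in DKO testes and 8.63, 8.91 and 8.98 in WT testes. In 11 of these 12 the groups did not overlap, and in Copg1 they did. These 12 were picked by small p, which favours groups that do not overlap. Over all probe sets, 103 of 963 (10.7%) had the DKO arrays below all WT arrays.

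The 12 higher ones with the smallest p included Gpc2, Rab7, Fgf18, St8sia5, Spock2, Ccr6, Wnt3a, B4galnt4, Il17ra, Slc35a3 and Uxs1, at 0.29 to 0.68 with limma adjusted p from 0.248 to 0.369. Rab7, a late endosome GTPase gene, read 8.06, 8.07 and 8.22 in DKO testes and 8.03, 6.89 and 7.39 in WT testes. N9700 lay just below the DKO arrays and far above the other WT arrays (0.68 ± 0.24), and in kidney of the same animals Rab7 was at 1.03. Fgf18, a fibroblast growth factor gene, was at 0.38 ± 0.14, and Wnt3a, a Wnt ligand gene, at 0.44 ± 0.18.

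Kidney of the same 6 animals was used to ask whether the differences in testes were unlike those in another tissue. In kidney alone limma called 0 of 963 probe sets (0.0%), and 162 had an unadjusted p below 0.05. Igf2r read 8.47, 8.51 and 8.43 in DKO kidney and 8.84, 8.91 and 8.81 in WT kidney (N9700, N3740, N3738). The groups did not overlap there either, with a difference of -0.38 ± 0.09 (limma adjusted p = 0.146). Hpse was at -0.04 ± 0.20 in kidney and Ugt1a6b at -0.17 ± 0.16. Testes and kidney share the animals, so these values are not independent of those in testes. In thymus of the same 6 animals Ugt1a6b, Igf2r and Hpse lay the other way, at 2.13, 0.28 and 0.25. The thymus differences were not tested, because the WT thymus arrays of N3740 and N3738 stood apart.

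The testes difference minus the kidney difference was tested within animals, and 0 of 963 probe sets was called (0.0%, limma, smallest adjusted p 0.375), while 82 had an unadjusted p below 0.05. Igf2r was at -0.45 ± 0.14 in this test, Hpse at -0.82 ± 0.20 and Ugt1a6b at -0.97 ± 0.25. None of the called genes is thereby shown to be particular to testes. The 5 probe sets with the smallest p were those of Cd44 (-0.68 ± 0.15), Chst7 (0.83 ± 0.20), St8sia4 (0.69 ± 0.16), Gcnt3 (-0.81 ± 0.19) and B3galt5 (0.80 ± 0.19). Cd44 is the hyaluronan receptor gene, and in testes it read 3.595, 3.772 and 4.059 in DKO and 4.402, 4.090 and 4.468 in WT. Chst7, a chondroitin sulfotransferase gene, was at 0.01 in testes and -0.82 in kidney, so its value came from kidney. The Gcnt3 value came from a probe set shared with other transcripts, and the other Gcnt3 probe set was at 0.00. Without N9700, 7 probe sets were called.

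**Figure D5:**
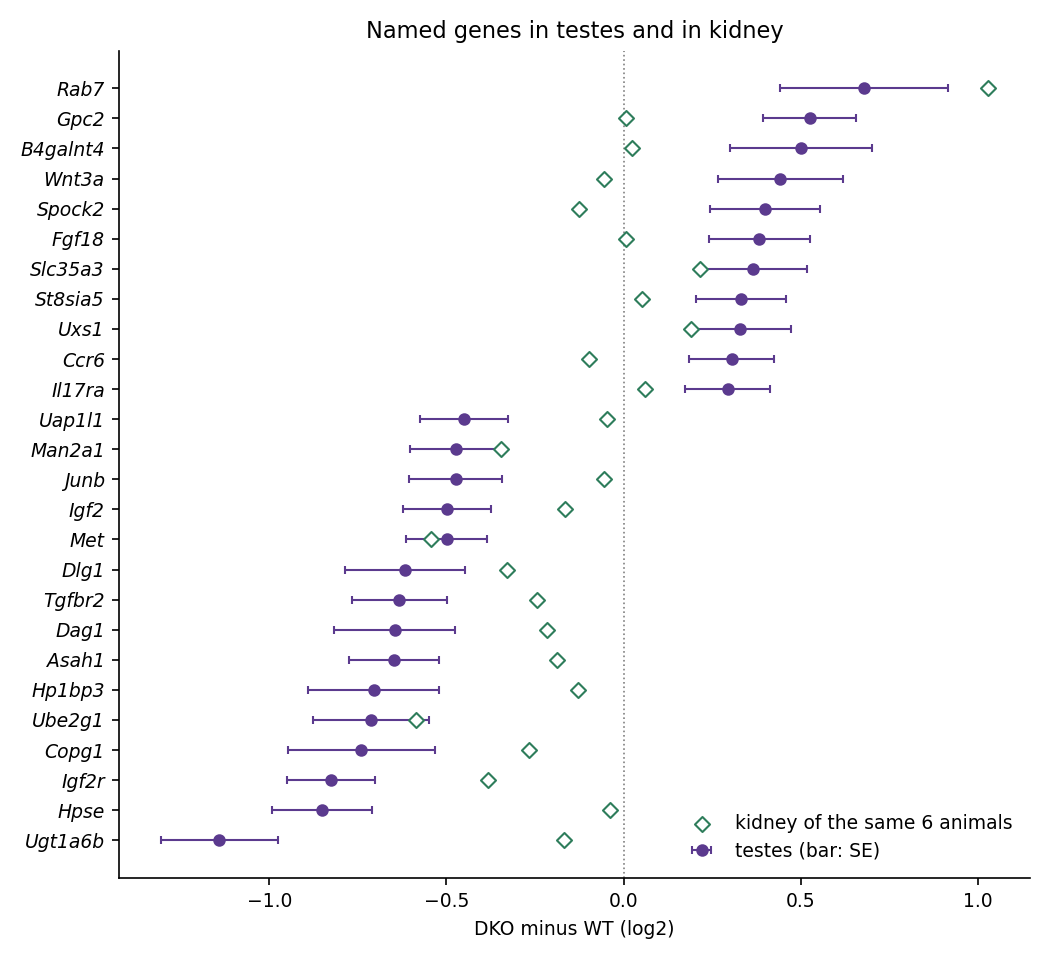
Log2 difference (DKO minus WT) in testes (filled, bar is SE) and in kidney of the same 6 animals (open) for the 3 called genes and for 11 of the 12 higher and all 12 lower genes with the smallest p. Hpse and Ugt1a6b are near 0 in kidney (-0.04 and -0.17), Igf2r is at -0.38, and Rab7 is at 0.68 in testes and 1.03 in kidney.

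Markers of the cell types that whole testes can hold were read on every array. The mean log2 level of the 3 germ cell markers lay between 8.29 and 8.63 in DKO, against 8.42 in WT N9700 and 8.17 to 8.26 in the other WT animals (Galntl5 0.34 ± 0.15, Mgat4d 0.24 ± 0.14, Fgf22 -0.16 ± 0.13). The 2 Sertoli cell markers lay between 5.70 and 5.94 in DKO, against 5.69 in N9700 and 6.08 to 6.16 in the other WT animals, with Gdnf at -0.37 ± 0.13 and Dhh at 0.06 ± 0.20. The 3 Leydig cell markers lay between 6.45 and 7.08 in DKO, against 6.56 in WT N9700 and 7.26 to 7.30 in the other WT animals. The 9 macrophage markers lay between 5.35 and 5.53 in DKO, against 5.40 in N9700 and 5.68 to 5.72 in the other WT animals. The 6 endothelial markers lay between 5.21 and 5.24 in DKO, against 5.19 in N9700 and 5.44 to 5.49 in the other WT animals. The 8 connective tissue markers lay between 6.67 and 6.89 in DKO, against 6.74 in N9700 and 6.93 to 7.03 in the other WT animals. The 7 lymphocyte markers lay between 4.81 and 4.86 in DKO, against 4.83 in N9700 and 4.87 to 4.93 in the other WT animals, and 3 of them were below 4.211 in both groups. By these list means N3740 and N3738 lay above the other 4 arrays in the Sertoli, Leydig, macrophage, endothelial, connective tissue and lymphocyte lists. In the germ cell list they lay below them. Not every member followed its list mean. Dhh read 7.85 in N3740 and in DKO N5895 and N5893, and Igf1 read 6.52 in N3738 and 6.63 in DKO N5893. Fgf22 read 6.46 in N3740 and 6.11 to 6.37 in DKO. Gdnf read 3.80 to 4.04 in DKO, below 4.211. No marker was called with all 6 animals. Without N9700, 1 of 3 germ cell markers rose (Galntl5), and 1 of 2 Sertoli cell, 2 of 3 Leydig cell, 3 of 8 connective tissue, 2 of 9 macrophage, 1 of 6 endothelial and 0 of 7 lymphocyte markers fell. Over all genes, 12 of 909 rose and 186 fell without N9700. The part of these levels in the differences above was not tested. In whole testes fewer cells of a type and less RNA per cell cannot be told apart.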

How the data were processed

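The authors deposited 1 log2 value per probe set and array. RMA (robust multi-array averaging) is the tool the submitters' processing notes name. Its version, and whether all arrays were normalized together, are not given in the sources used here. They ran from 2.113 to 14.069 and were used as deposited. Of 1246 probe sets, 963 were named through their RefSeq identifier and the GRCm38.p6 gene table, and the other 283 were tested only in an alternative. A gene with several probe sets is shown by the one with the highest mean.

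DKO and WT testes were compared with limma 3.58.1 in R 4.3.3 (moderated test, 2-sided, Benjamini-Hochberg over 963), and the method was tested on simulated data. All animals are male and each has 1 genotype, so no covariate or block was used. Testes and kidney were paired by the animal names in the labels. The number of arrays limits the precision, and the labels used here give no hybridisation batch. Named were the targeted genes, all called probe sets, the 12 higher and 12 lower with the smallest p, the called or smallest-p member of each list, the members of 5 short lists by value, and the 5 smallest p of the testes minus kidney test. A few genes that the rule names are not reported here. The genes, lists and tests were chosen with earlier results of these data known. Alternatives covered left-out animals, centring, a second quantile normalization, array weights, a filter on low values, gene means and a fit of all groups of the line.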

Additional observations from a re-analysis of the deposited data

How the results depend on the processing

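The limits of these results are the number of animals and the WT array of N9700. With 1 animal left out in turn, the number of probe sets called in testes ran from 0 to 205 (lower 0 to 193, higher 0 to 12), and only leaving out N9700 gave any. Without N3740 and N3738 together 5 were called (5 lower), none of them Ugt1a6b, Igf2r or Hpse, and the single WT animal left was assumed to vary like the DKO animals. Array weights, which gave N9700 a weight of 0.26 and the other arrays 1.05 to 1.79, called 205 (192 lower, 13 higher). The weights were estimated on these same arrays and mostly set N9700 aside. Calls with array weights are therefore no separate support beside those without N9700. Centring on the 4 measured housekeeping genes, of which Ube2g1 and Rab7 were themselves at -0.71 and 0.68, called 1 (1 lower, Ugt1a6b). A fit of all groups of the line called 1 (1 lower, Igf2r). No gene was thus called in both, and Hpse was called in neither (limma adjusted p = 0.0657 and 0.267). The filter on low values, all probe sets, gene means, a second quantile normalization and a variance trend each called 3. B4galnt1 ran from -0.47 to -0.18 with 1 animal left out and was called without N9700 and with array weights (-0.425, limma adjusted p = 0.0293). B4galnt4 turned to -0.023 without N3740 and N3738 together. In the testes minus kidney test 0 to 7 probe sets were called with 1 animal left out. There 0 were called with no replicate block and 0 with a random replicate block (correlation 0.19), so the pairing changed no call. No paired analysis of the testes groups was possible because each animal has 1 genotype. Why the alternatives differ was not tested.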
